A study of Mus musculus with 5 samples.

Results

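The accessible chromatin of 3 genes of the type 1 effector programme, Tbx21, Eomes and Ifng, was examined in sorted mouse thymocytes by ATAC-seq, which tags open DNA with a transposase. The genes were taken as windows on the mm9 assembly, 160 kb around Ifng (chr10:117800000-117960000), 140 kb around Eomes (chr9:118320000-118460000) and 120 kb around Tbx21 (chr11:96900000-97020000). Every deposited peak that met a window was kept. The 3 windows held 110 of the 332881 peaks of the series. Peaks of the 5 libraries that overlapped were merged into regions, and the windows held 64 of 157434 regions, with 23 at Ifng, 27 at Eomes and 14 at Tbx21.

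Each of the 5 libraries was made from 40000 sorted C57BL/6 cells. Transgenic SOX13lo and transgenic SOX13hi cells were CD24+ γδ T thymocytes with low to absent and with high CFP, from TCRbeta KO.Sox13tg+.Sox13 ECFP KI/+ animals, which carry a Sox13 transgene. SOX13lo and SOX13hi cells were the same 2 fractions from TCRbeta KO.Sox13 ECFP KI/+ animals, without the transgene. All 4 γδ libraries thus lacked TCRbeta and carried the CFP reporter at 1 Sox13 allele. DP cells were double-positive thymocytes of wild type animals, with neither. No source used here gives the promoter of the transgene, the ages or any pooling of animals. Each group held 1 library, so the differences below are between libraries and carry no p-value.

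SOX13 is an HMG-box transcription factor that marks immature γδ thymocytes and favours those that will make IL-17. Other γδ thymocytes become type 1 cells, which make interferon-γ. Tbx21 encodes T-bet, the T-box factor that directs the type 1 programme in T cells. Eomes encodes a related T-box factor that shares targets with T-bet in CD8 T cells and NK cells. Ifng encodes interferon-γ, the main effector cytokine of that programme and a target of both factors. DP thymocytes are an intermediate stage of the αβ lineage.

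The proximal promoters of the members are shown as the start sites of the 3 genes, where regulatory factors of these families can bind. They come from RefSeq (GRCm38.p6), run from 250 bases before to 50 bases after the start of transcription, and could not be placed on the mm9 peaks. Capitals mark matches to any of 9 short motifs searched on both strands.
Ifng (chromosome 10, plus strand): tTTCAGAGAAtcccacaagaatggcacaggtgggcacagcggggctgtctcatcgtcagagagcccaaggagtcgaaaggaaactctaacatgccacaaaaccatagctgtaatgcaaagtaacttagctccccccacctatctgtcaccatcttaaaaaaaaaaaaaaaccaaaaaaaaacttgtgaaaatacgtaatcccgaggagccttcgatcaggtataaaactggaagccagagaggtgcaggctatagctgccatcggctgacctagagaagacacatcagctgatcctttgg
Eomes (chromosome 9, plus strand): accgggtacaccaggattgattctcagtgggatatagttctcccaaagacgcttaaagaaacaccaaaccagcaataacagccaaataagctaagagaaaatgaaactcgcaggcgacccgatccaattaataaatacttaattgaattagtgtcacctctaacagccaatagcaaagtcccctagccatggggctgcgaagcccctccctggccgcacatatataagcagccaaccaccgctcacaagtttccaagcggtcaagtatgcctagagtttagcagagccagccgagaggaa
Tbx21 (chromosome 11, minus strand): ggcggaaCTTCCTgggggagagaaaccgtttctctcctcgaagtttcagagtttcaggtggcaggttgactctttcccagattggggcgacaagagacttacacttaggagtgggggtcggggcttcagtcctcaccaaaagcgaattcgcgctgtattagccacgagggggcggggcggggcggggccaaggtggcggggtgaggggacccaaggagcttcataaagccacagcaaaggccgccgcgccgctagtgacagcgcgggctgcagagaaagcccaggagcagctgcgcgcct
The HMG-box letters ACAAAG and ACAAT were in none of the 3, and they occur in 18.7% and 31.0% of all 32851 promoters of the table. The T-box letters GGTGTGA (3.98% of promoters), the RUNX letters TGTGGT (16.8%), the GATA letters AGATAA (11.2%), the AP-1 letters TGANTCA (7.81%) and the ETS letters CCGGAA (14.9%) were also in none. Ifng held 1 match to the STAT letters TTCNNNGAA (8.30% of promoters), and Tbx21 held 1 to the ETS letters AGGAAG (35.4%), which lies on the other strand as CTTCCT. No match overlapped another. The GC content was 46.0% at Ifng, 47.3% at Eomes and 62.0% at Tbx21.

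The lists differed in length, from 33155 peaks for transgenic SOX13lo to 113877 for DP, with 63932 for transgenic SOX13hi, 67482 for SOX13lo and 54435 for SOX13hi. The read depth is unknown, so a longer list can reflect depth as well as openness. Values are therefore also given per 10000 regions of a library and with each list limited to its 33155 highest-scoring peaks, called equal-length lists. Each peak carries a whole-number score from the authors whose meaning is not stated, and a score is read here only by its rank within its own list. Inside the SOX13lo file all peaks are named SOX13hi-ATAC, and inside the SOX13hi file Sox13hi-ATAC, and the sample labels were followed. Were these 2 labels exchanged, every difference between SOX13lo and SOX13hi would reverse, and their values against DP and the transgenic libraries would change places. Transgenic SOX13hi and DP share an index sequence in the labels. The identity of the sorted cells could not be checked against marker genes, because genes were not placed on mm9 here.

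The Ifng window held more accessible regions in SOX13lo than in any other library. Transgenic SOX13lo had 3 regions, transgenic SOX13hi 9, SOX13lo 20, SOX13hi 6 and DP 2. The exact Poisson 95% intervals were 0.619 to 8.77, 4.12 to 17.1, 12.2 to 30.9, 2.20 to 13.1 and 0.242 to 7.22, in that order. They cover counting error only and treat regions as independent, which neighbouring peaks of 1 locus are not. Per 10000 regions of the library these were 1.21, 1.70, 3.41, 1.36 and 0.181. SOX13lo was thus highest and DP lowest, and the other 3 libraries lay close together. On this scale the SOX13lo interval (2.08 to 5.26) overlapped those of the other γδ libraries but not that of DP (0.022 to 0.655). The bases covered by peaks differed less, with 448, 953, 1282, 592 and 827 bp in the order of libraries above. The whole lists covered 2.65, 5.86, 7.13, 5.24 and 11.8 Mb. Relative to these totals SOX13lo lay close to both transgenic libraries, SOX13hi was lower and DP was lowest.

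In the Eomes window the order was different, with DP and SOX13lo at the top. Here transgenic SOX13lo had 3 regions, transgenic SOX13hi 6, SOX13lo 12, SOX13hi 4 and DP 20. Per 10000 regions this gave 1.21, 1.13, 2.04, 0.909 and 1.81. All 5 intervals overlapped on this scale. The Tbx21 window was sparse in every γδ library, with 1 region for transgenic SOX13lo, 3 for transgenic SOX13hi and 2 each for SOX13lo and SOX13hi. DP had 12 there. Per 10000 regions these were 0.403, 0.565, 0.341, 0.454 and 1.09, and the intervals again overlapped.

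**Figure D1:**
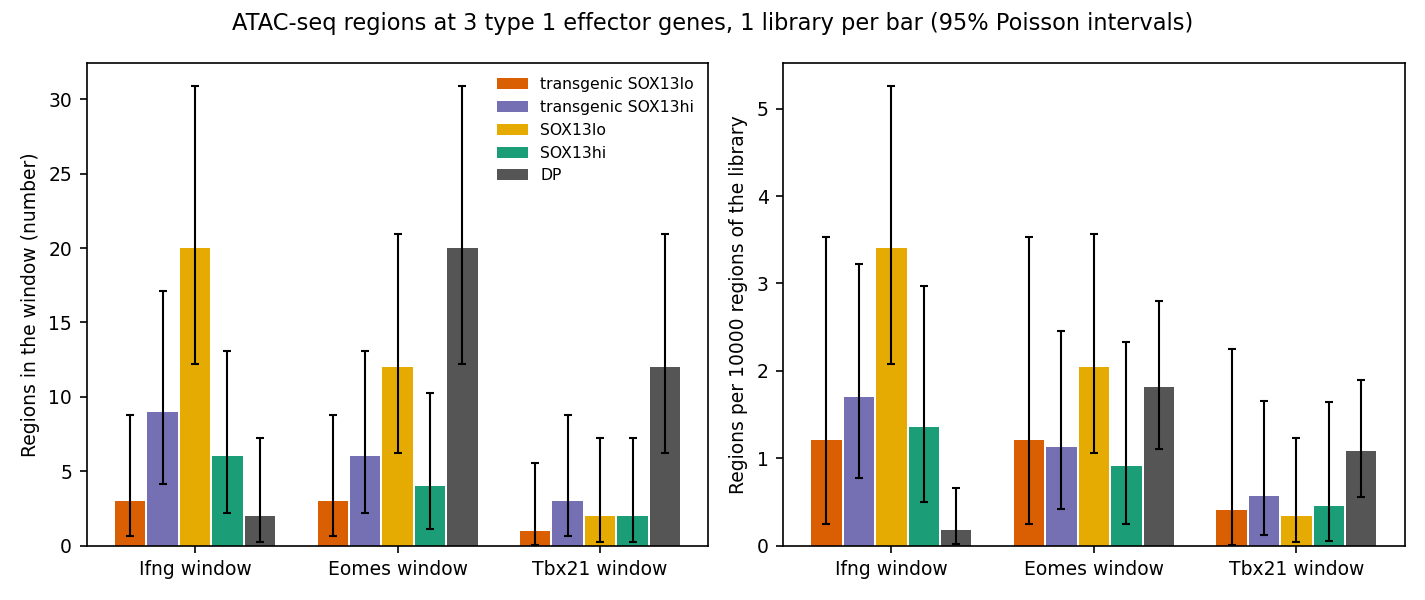
Number of merged regions in each window (left) and the same per 10000 regions of the library (right), with 1 bar per library and exact Poisson 95% intervals. In the Ifng window SOX13lo stands at 20 regions (3.41 per 10000) and DP at 2 (0.181), whereas DP has the most regions in the Eomes and Tbx21 windows (20 and 12) before scaling.

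The first comparison set SOX13lo against SOX13hi, and asked at which regions only 1 fraction was open. At Ifng, 15 regions were held by SOX13lo alone of the pair, 1 by SOX13hi alone and 5 by both. SOX13lo thus held 93.8% of the 16 regions that differed (exact Clopper-Pearson 95% interval 69.8 to 99.8). Over all regions of the series SOX13lo, the longer list, held 66.8% of those that differed between these libraries, which lies just outside that interval. Like the Poisson intervals, it covers counting error only and treats regions as independent. Yet 3 of the 15 SOX13lo regions lay within 1266 bp of each other and 5 within 2771 bp. The excess was of the same direction under all 8 alternative settings, but the interval left out the share over all regions in only 3 of them. With equal-length lists SOX13lo held 6 of 8 differing regions (75.0%, 34.9 to 96.8), against 55.5% over all regions. Per region of the library, SOX13lo had 2.50 times as many regions at Ifng as SOX13hi. Of 6290 windows of 160 kb along the genome with at least 5 regions in the pair, 6.88% reached 2 times in that direction.

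At Eomes, SOX13lo alone held 9 regions, SOX13hi alone 1 and both 3. The share of SOX13lo was 90.0% (55.5 to 99.7), and the 66.8% over all regions lies inside this interval. SOX13lo had 2.25 times as many regions as SOX13hi per region of the library, and 7.36% of 6699 windows of 140 kb reached 2 times. With equal-length lists the numbers of regions were 5 in SOX13lo and 3 in SOX13hi. At Tbx21 each fraction held 1 region that the other lacked and 1 was shared, and no difference was detectable with so few regions.

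Regions of SOX13lo that no other library held were also counted. Of the 20 SOX13lo regions at Ifng, 11 were in no other list, against 26.1% of SOX13lo regions over the genome. At Eomes 3 of 12 were, and at Tbx21 1 of 2. For the other lists at Ifng the numbers were 0 of 3 in transgenic SOX13lo (11.7% over the genome), 2 of 9 in transgenic SOX13hi (21.7%), 1 of 6 in SOX13hi (16.6%) and 0 of 2 in DP (57.6%). Of the 11 SOX13lo regions at Ifng, only chr10:117898526-117898653 and chr10:117923940-117924054 were in the equal-length list. The 11 include groups of 3 and of 5 neighbouring peaks.

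**Figure D2:**
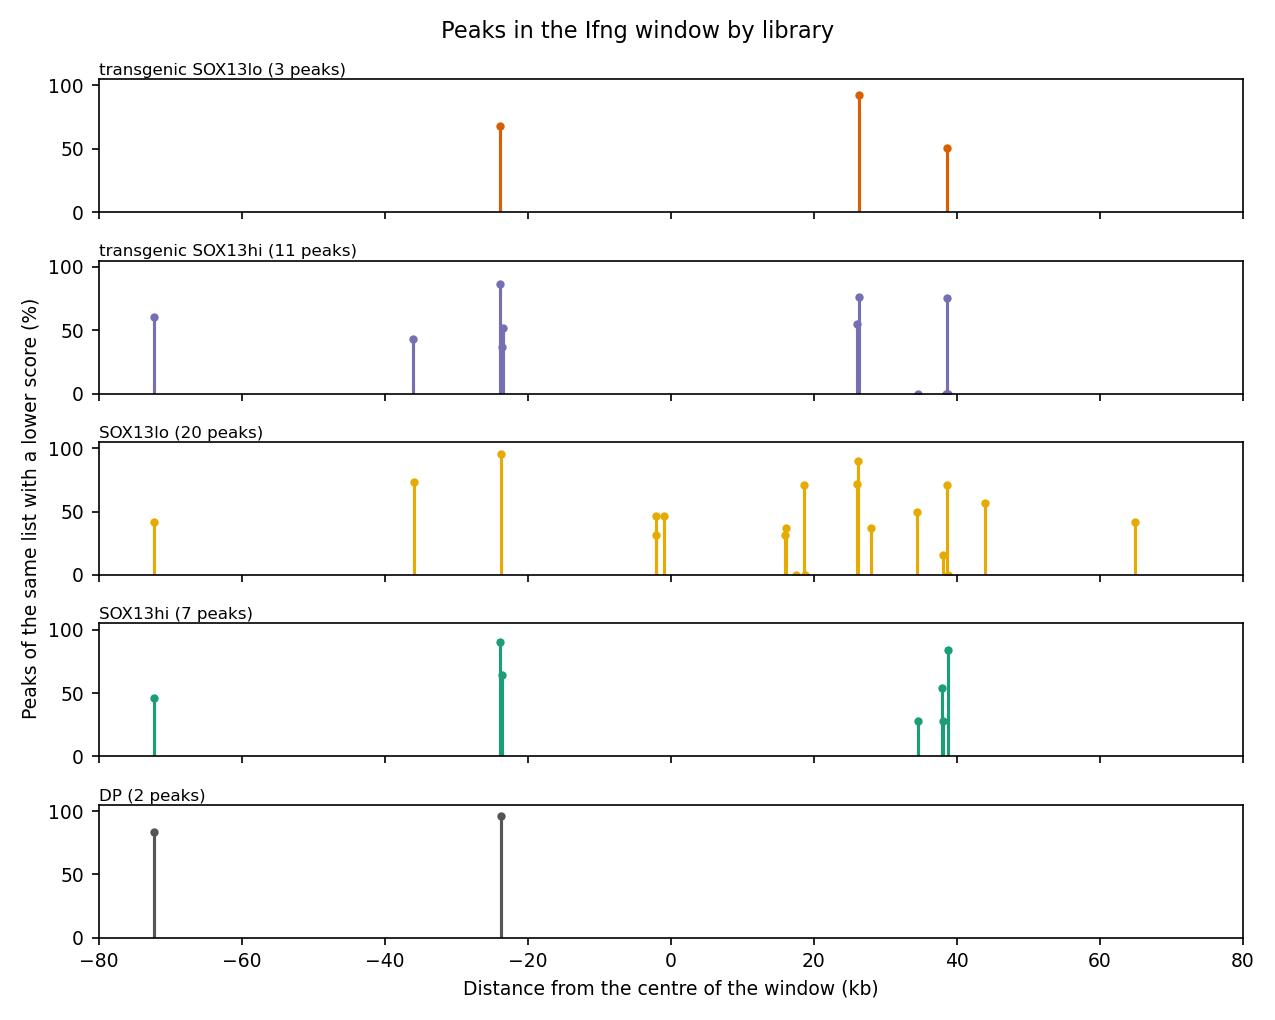
Peaks of each library along the Ifng window, by distance from the window's centre in kb, with the height giving the percentage of peaks of the same list that have a lower score. All 5 libraries have a peak near -24 kb, the groups of peaks near -1 kb and +17 kb are seen in SOX13lo alone, and DP has no peak to the right of -23 kb.

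The Ifng peaks fell into 10 clusters when peaks within 2 kb were joined, a grouping chosen after the values were seen. SOX13lo had a peak in each of the 10 clusters and DP in 2. The region chr10:117855860-117856657 was the 1 Ifng region that all 5 libraries held, and had the highest score of the window in every library but transgenic SOX13lo. In transgenic SOX13lo its highest peak scored above 68.4% of the list, in transgenic SOX13hi above 86.5%, in SOX13lo above 95.4%, in SOX13hi above 90.0% and in DP above 96.3%. The DP peak there was 798 bp wide. The widest peaks of the other libraries in it spanned 29 bp (transgenic SOX13lo), 240 bp (transgenic SOX13hi), 62 bp (SOX13lo) and 283 bp (SOX13hi). The other DP peak of the window lay in the region at chr10:117807643-117807740, which transgenic SOX13hi, SOX13lo and SOX13hi held too. Apart from these 2 regions DP had no peak in the window.

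Close to the centre of the window, SOX13lo had 3 peaks at chr10:117877908-117879173 where the other 4 lists had 0. They were 29, 70 and 90 bp wide with scores of 14, 11 and 14, above 46.5%, 31.8% and 46.5% of the list. A second cluster of 5 SOX13lo peaks at chr10:117896027-117898797 was likewise without a peak in the other lists. Its strongest peak, chr10:117898526-117898653, was 128 bp wide and scored 29, above 70.9% of the list. Single SOX13lo peaks without a partner lay at chr10:117907941-117908028, chr10:117923940-117924054 and chr10:117944860-117944888. These are peaks of low to middle rank, and of the 8 in the 2 clusters 1 remained in the equal-length list. Of the 4 Ifng clusters with at least 3 SOX13lo peaks, 2 were without any other library, against 0.884% of 9052 such clusters in the genome. With clusters joined within 1 kb, or with equal-length lists, their number was 0. This count was not planned and follows the clusters described, so the genome share beside it is no test. Which of these peaks meet the Ifng gene or its promoter was not analysed here.

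Of the Ifng regions absent from DP, 1 was common to all 4 γδ libraries and 1 to 3 of them. The region chr10:117918567-117918774 was held by all 4 γδ libraries. In transgenic SOX13lo its peak scored above 50.9% of the list, in transgenic SOX13hi above 75.6%, in SOX13lo above 70.9% and in SOX13hi above 83.8%. It was 1 of 2 Ifng regions shared by the 4 γδ libraries, and over the genome DP lacked 6.84% of 15962 such regions. The region chr10:117906162-117906486 was held by transgenic SOX13lo, transgenic SOX13hi and SOX13lo, and by neither SOX13hi nor DP. The transgenic SOX13lo peak was 325 bp wide and scored above 92.9% of its list. The transgenic SOX13hi peak was 174 bp wide (above 76.5%) and the SOX13lo peak 28 bp wide (above 90.2%). It was the highest-scoring peak of transgenic SOX13lo in the window. Of the 3 Ifng regions that these 3 libraries shared it was the 1 that SOX13hi and DP lacked, against 1.60% of 17283 over the genome. These combinations of libraries were not planned and follow the regions described, so the genome shares beside them are no test.

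The transgenic libraries were then set against each other and against the same fraction without the transgene. At Ifng, transgenic SOX13lo held no region that transgenic SOX13hi lacked, transgenic SOX13hi held 6 alone, and 3 were shared. The share of transgenic SOX13lo was 0% of 6 (0 to 45.9), against 14.3% over all regions. Transgenic SOX13lo also held no Ifng region that SOX13lo lacked, whereas SOX13lo held 17 alone and 3 were shared. This share was 0% of 17 (0 to 19.5), against 13.0% over all regions, which lies inside the interval. Per region of the library SOX13lo had 2.82 times the regions of transgenic SOX13lo at Ifng, a factor of 2 that 16.6% of 5724 windows reached. Transgenic SOX13lo is the shortest list, and with equal-length lists it had 3 Ifng regions against 8 in SOX13lo. Its Ifng peaks covered 448 bp and those of SOX13lo 1282 bp, in lists that covered 2.65 and 7.13 Mb. Relative to the list, the covered bases were thus close.

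Of the 12 Ifng regions in transgenic SOX13hi or SOX13hi, transgenic SOX13hi held 6 alone, SOX13hi held 3 alone and 3 were shared. The share of transgenic SOX13hi was 66.7% (29.9 to 92.5), against 62.0% over all regions, and no imbalance beyond that was detectable with 9 differing regions. At Eomes transgenic SOX13lo held 1 of 5 differing regions against transgenic SOX13hi and 1 of 11 against SOX13lo, and transgenic SOX13hi held 3 of 4 against SOX13hi. At Tbx21 the same numbers were 0 of 2, 1 of 3 and 2 of 3. For these 6 shares the value over all regions lay within the interval, so that no difference was detectable with so few regions.

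**Figure D3:**
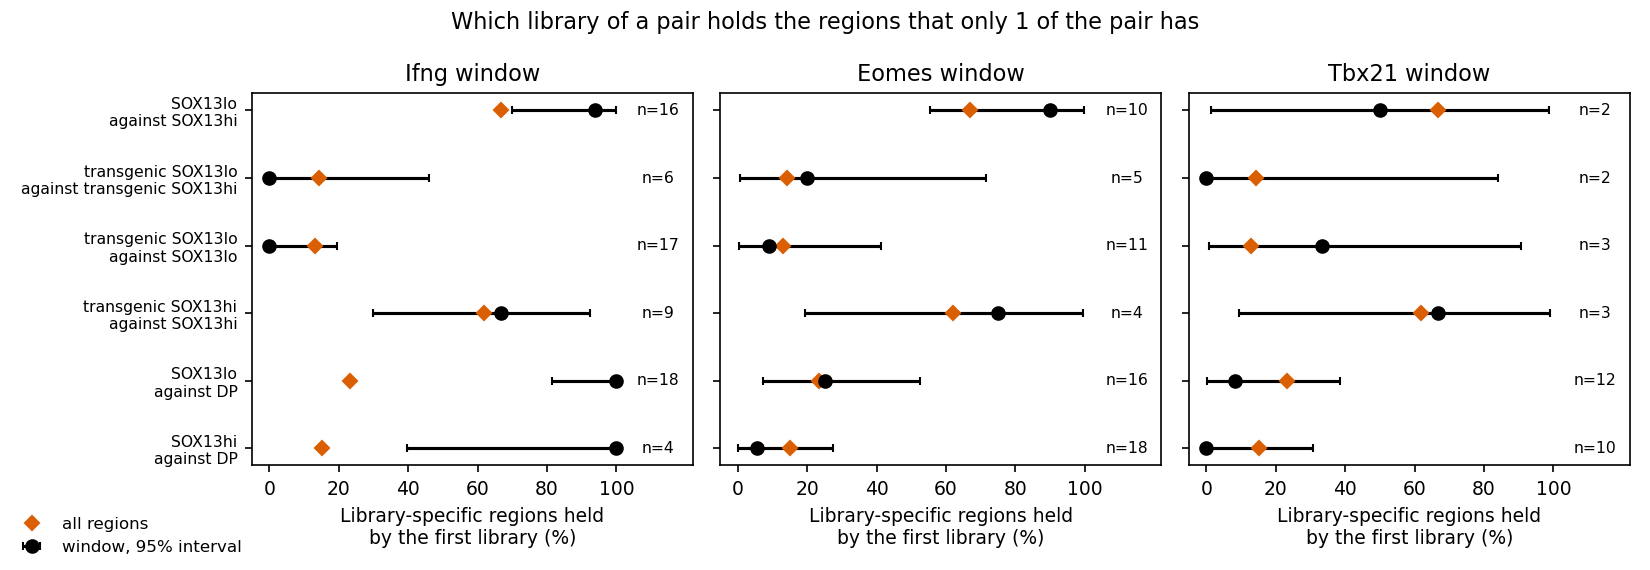
For each window and pair of libraries, the percentage of regions held by exactly 1 library of the pair that the first-named library holds (black, with exact 95% intervals and the number n of such regions) and the same over all regions of the series (orange). The value over all regions lies outside the interval at Ifng for SOX13lo against SOX13hi (93.8% and 66.8%) and for both fractions against DP (100% against 23.3% and 15.2%), and inside it in the other 15 cases.

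The last comparison set the non-transgenic fractions against DP thymocytes, with which the comparisons above share the SOX13lo and SOX13hi libraries. Cell type and genotype differ together here and cannot be told apart. At Ifng every region that differed was open in the γδ fraction. SOX13lo held 18 regions that DP lacked, DP held none that SOX13lo lacked, and 2 were shared. The share of SOX13lo was 100% (81.5 to 100), against 23.3% over all regions. This interval left out the share over all regions under all 8 alternatives, in which SOX13lo held between 87.5% and 100% of the differing regions. Equal-length lists left 8 Ifng regions in SOX13lo and 2 in DP. The share of SOX13lo was then 87.5% (47.3 to 99.7), against 45.5% over all regions, and DP held 1 region that SOX13lo lacked. Per region of the library SOX13lo had 18.8 times as many Ifng regions as DP, and 14.1% of 7030 windows reached 2 times. In covered bases the difference was smaller, with 1282 bp in SOX13lo (list of 7.13 Mb) and 827 bp in DP (11.8 Mb). The DP bases lay mostly in 1 peak of 798 bp.

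SOX13hi held 4 Ifng regions that DP lacked, and DP held none that SOX13hi lacked. The share of 100% of 4 (39.8 to 100) stood against 15.2% over all regions. It was 75.0% of 4 with equal-length lists (19.4 to 99.4) and 66.7% of 3 with the upper 50% of each list (9.43 to 99.2). Those 2 intervals held the shares over all regions of 41.4% and 12.6%. Per region of the library SOX13hi had 7.52 times as many Ifng regions as DP, and 15.7% of 6854 windows reached 2 times. The SOX13hi peaks covered 592 bp there, fewer than the 827 bp of DP, in lists of 5.24 and 11.8 Mb.

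Eomes and Tbx21 did not follow Ifng in this comparison. At Eomes, SOX13lo held 4 regions alone, DP 12 alone and 8 were shared, a share of 25.0% (7.27 to 52.4) for SOX13lo. SOX13hi held 1 alone, DP 17 alone and 3 were shared, a share of 5.56% (0.141 to 27.3) for SOX13hi. At Tbx21, SOX13lo held 1 region alone and DP 11, and SOX13hi held none alone and DP 10. These shares were 8.33% (0.211 to 38.5) and 0% (0 to 30.8). All 4 intervals included the share over all regions, 23.3% for SOX13lo and 15.2% for SOX13hi. Per region of the library DP had 3.20 times the Tbx21 regions of SOX13lo and 2.39 times those of SOX13hi. Of 8299 and 8067 windows of 120 kb, 16.8% and 16.9% reached a factor of 2. The DP list reaches down to a score of 5, against 8 in SOX13lo and 7 in SOX13hi. The median score of the DP peaks at Tbx21 was 6. With equal-length lists DP had 2 Tbx21 regions, SOX13lo 0 and SOX13hi 1.

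**Figure D4:**
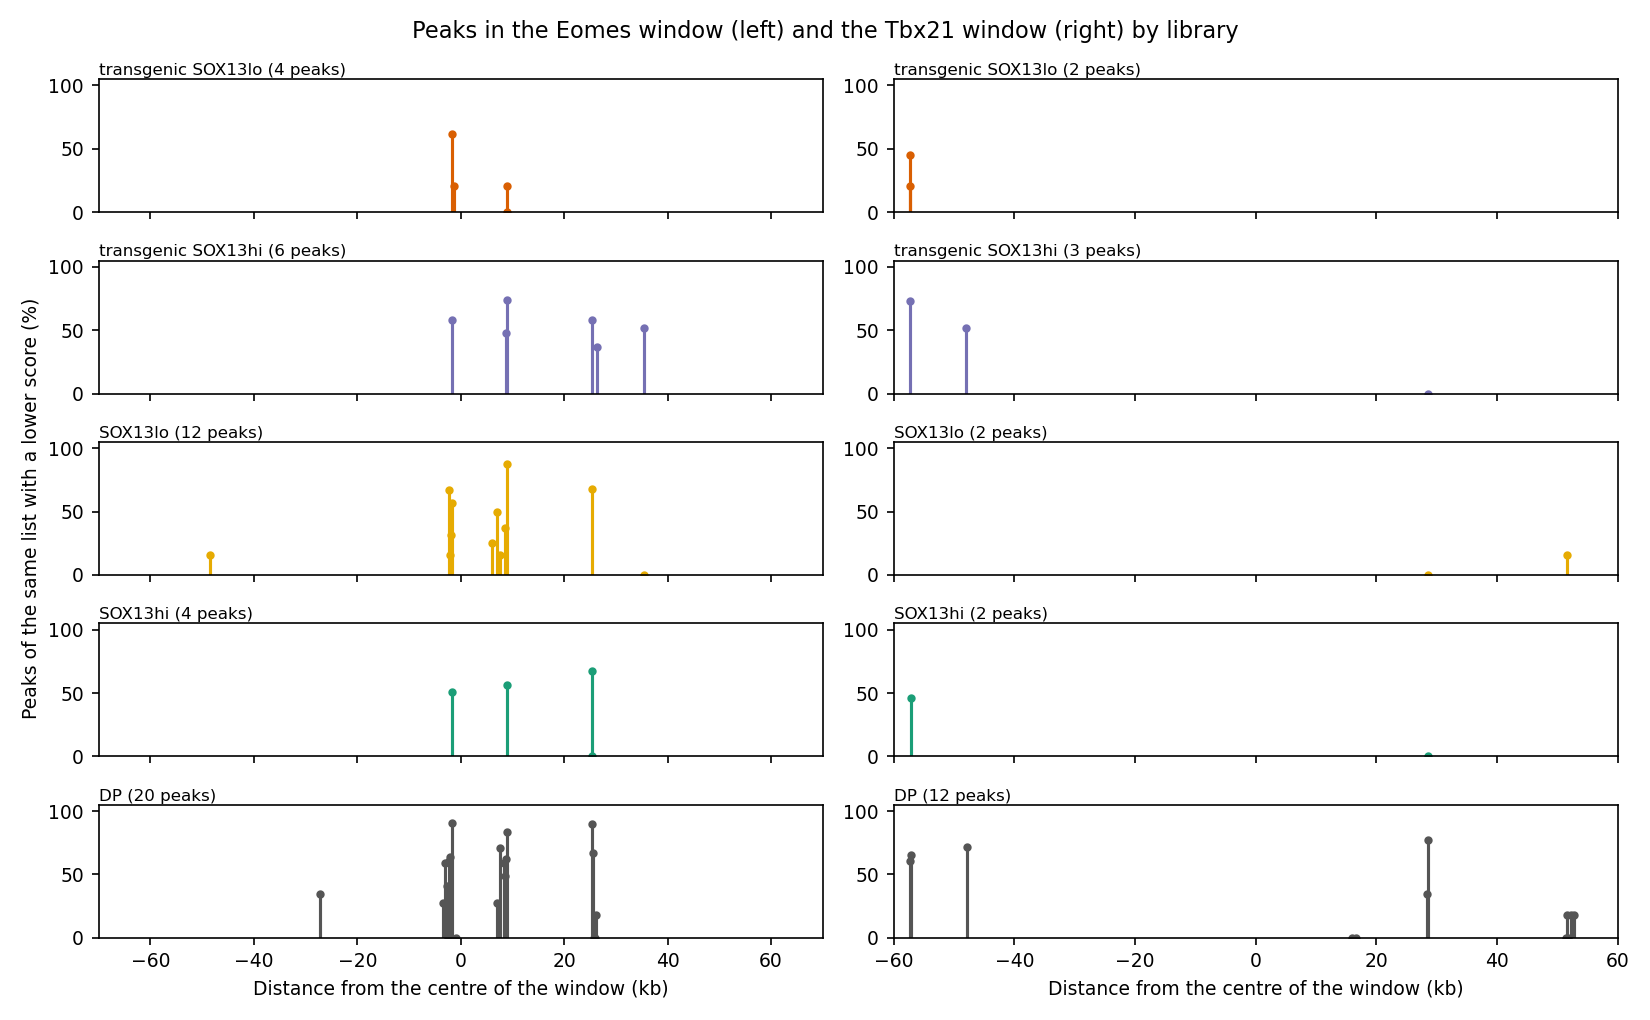
Peaks of each library along the Eomes window (left) and the Tbx21 window (right), by distance from the window's centre in kb, with the height giving the percentage of peaks of the same list that have a lower score. At Eomes most peaks gather in 3 places, with 12 peaks of SOX13lo and 20 of DP in the whole window against 4 to 6 in the other libraries, and at Tbx21 the γδ libraries have 2 or 3 peaks each against 12 in DP.

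The Eomes peaks lay mostly in 3 clusters. The cluster at chr9:118386594-118389007 held 2 transgenic SOX13lo peaks, 1 transgenic SOX13hi peak, 4 SOX13lo peaks, 1 SOX13hi peak and 8 DP peaks. Within it the region chr9:118388225-118388442 was common to all 5 libraries, with a score above 61.8% of the transgenic SOX13lo list, 58.0% of the transgenic SOX13hi list, 56.9% of the SOX13lo list, 50.6% of the SOX13hi list and 90.5% of the DP list. The cluster at chr9:118396010-118399008 held 2, 2, 5, 1 and 6 peaks in that order of libraries. It contained the other region held by all 5, chr9:118398819-118399008, whose top score lay above 20.4%, 73.7%, 87.8%, 56.4% and 83.4% of the lists. The third cluster, chr9:118415222-118416325, had 2 transgenic SOX13hi peaks, 1 SOX13lo peak, 2 SOX13hi peaks, 5 DP peaks and none of transgenic SOX13lo.

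SOX13lo and DP shared several Eomes regions that SOX13hi lacked. They were 5 of the 8 Eomes regions held by both SOX13lo and DP, against 31.5% of 36278 such regions over the genome. This combination of libraries was not planned, so the genome share beside it is no test. The 5 regions all lay in the clusters at chr9:118386594-118389007 and chr9:118396010-118399008, and neighbouring regions are not independent. With equal-length lists SOX13lo and DP shared 3 Eomes regions and SOX13hi lacked 0 of them, against 18.5% of 19115 over the genome. Those of the full lists with a SOX13lo peak wider than 30 bp and without a transgenic SOX13hi peak were chr9:118387653-118387818, chr9:118396940-118397040, chr9:118397487-118397655 and chr9:118398478-118398614. The SOX13lo scores there were 25, 15, 9 and 12, and the highest lay above 67.0% of the list. SOX13lo alone held chr9:118388126-118388210 and chr9:118396010-118396072, with scores of 11 and 10, and neither is in the equal-length list. The region chr9:118416233-118416325 was held by transgenic SOX13hi and DP and by no SOX13lo library, with scores of 10 and 6.

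At Tbx21 no region was common to all 5 libraries. The most widely held, chr11:96988518-96988752, was present in transgenic SOX13hi, SOX13lo, SOX13hi and DP. Its γδ peaks were 28 bp wide and had the lowest score of their lists, 7 in transgenic SOX13hi, 8 in SOX13lo and 7 in SOX13hi, whereas the DP peak was 235 bp wide and scored 33, above 77.4% of that list. The highest peaks of both transgenic libraries lay in chr11:96902664-96902827, near the edge of the window, above 45.4% of the list in transgenic SOX13lo and 72.7% in transgenic SOX13hi. SOX13hi had its highest peak in the adjoining region chr11:96902828-96902989, and SOX13lo had its highest at chr11:97011520-97011547, with a score of 9. In the equal-length lists transgenic SOX13lo had 2 Tbx21 regions, transgenic SOX13hi 2, SOX13lo 0, SOX13hi 1 and DP 2. The transgenic SOX13lo list itself is not shortened there. Its 2 peaks counted as 1 region in the full lists because the DP peak chr11:96902664-96902814, absent from the equal-length list, joined them. Other genes lie near Tbx21, with Osbpl7 and Tbkbp1 the neighbouring protein-coding genes in the GRCm38.p6 gene table, and the peaks of the window were not divided between them. The same holds for the other windows. The neighbouring protein-coding genes are Iltifb and Dyrk2 at Ifng, and LOC115486419 and Golga4 at Eomes. Among all genes Ifngas1 follows Ifng. Which neighbours fall inside a window was not analysed here.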

How the data were processed

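Accessible chromatin was measured in 5 libraries, 1 per group. The authors deposited 1 headerless peak list per library with a whole-number score per peak. The submitters' processing notes name mm9 as the build. No source used here gives the peak caller, its threshold, the read depth or the meaning of the score. All deposited peaks entered. Those overlapping by at least 1 bp were merged into regions, and a library held a region when 1 of its peaks met it. The number of regions of a library thus depends also on the peaks of the other libraries. The 3 windows, gene lists and comparisons were chosen with earlier results of these data known.

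For each pair of libraries the value is the percentage of regions held by exactly 1 of the pair that the first holds. It has an exact Clopper-Pearson 95% interval and stands beside the same percentage over all regions. The interval covers counting error only and treats regions as independent. Windows of the same length tiled along the chromosomes, with at least 5 regions in the pair, gave the share past a factor of 2. The 8 alternatives used the 50% of each list with the highest scores, equal-length lists, peaks wider than 30 bp, joining within 150 bp, peak centres within 200 bp, a reciprocal overlap of 50%, the central 50% of each window or windows widened by 50 kb. The functions were tested on simulated lists. Regions named are those held by 4 or 5 libraries, those with the highest score of a library, and those with a peak wider than 30 bp in 1 fraction and absent from the other, up to 12 a window, the widest first. Single peaks of SOX13lo clusters at Ifng were chosen after their values were seen. Other genes of the type 1 programme were not placed on mm9 and are not analysed here. Software was Python 3.11.15 with scipy 1.17.1, pandas 2.3.3, numpy 2.4.6 and, for figures, matplotlib 3.10.9.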

Additional observations from a re-analysis of the deposited data

Results flagged for a closer look

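Differences are in regions per 10000 regions of the library. At Ifng the fractions differed in opposite directions with and without the transgene, by -0.49 for transgenic SOX13lo minus transgenic SOX13hi (1.21 and 1.70) and by 2.04 for SOX13lo minus SOX13hi (3.41 and 1.36). Put the other way, transgenic SOX13lo minus SOX13lo was -2.20 and transgenic SOX13hi minus SOX13hi was 0.33. The Poisson intervals of transgenic SOX13lo (0.249 to 3.53) and transgenic SOX13hi (0.775 to 3.22) overlapped. Were the doubted labels of SOX13lo and SOX13hi exchanged, the fractions would differ in the same direction with and without the transgene. With equal-length lists transgenic SOX13lo had 3 Ifng regions, transgenic SOX13hi 5, SOX13lo 8 and SOX13hi 4. The opposite direction depends on counting regions. In covered bases transgenic SOX13lo had 448 bp at Ifng in a list of 2.65 Mb, and transgenic SOX13hi 953 bp in 5.86 Mb. Relative to the list these were nearly equal, whereas SOX13lo (1282 bp in 7.13 Mb) remained above SOX13hi (592 bp in 5.24 Mb). At Eomes transgenic SOX13lo minus SOX13lo was -0.83 and transgenic SOX13hi minus SOX13hi was 0.22, with 3, 4, 5 and 3 regions in equal-length lists, in the same order of libraries. With 1 library per group these differences between differences were not tested.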

How the results depend on the processing

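Of 138 shares recomputed under the 8 alternatives, 102 stayed within the interval of the main value, and none of the 3 shares whose interval left out the value over all regions changed direction. Shares without a differing region gave no value. Values outside the interval were as follows. For SOX13lo against SOX13hi, the share at Ifng was 100% with joining within 150 bp and with centres within 200 bp. At Eomes it was 100% with the upper 50%, equal-length lists, peaks wider than 30 bp, joining and centres, and at Tbx21 0% with equal-length lists. For transgenic SOX13lo at Eomes, the share against transgenic SOX13hi and that against SOX13lo were 0% with the upper 50% and with peaks wider than 30 bp. At Tbx21 the share of transgenic SOX13lo against SOX13lo was 100% with equal-length lists and 0% in the central 50% of the window. For transgenic SOX13hi against SOX13hi it was 100% at Eomes with the upper 50%, equal-length lists, wider peaks, joining and centres, and at Tbx21 100% with the upper 50%, wider peaks, joining and centres. For SOX13lo against DP, the share at Eomes was 66.7% with equal-length lists and 60% with wider peaks, and at Tbx21 0% with the upper 50%, equal-length lists, wider peaks, joining, the central 50% of the window and centres. For SOX13hi against DP, it was 0% at Eomes with the upper 50%, equal-length lists, joining and centres, and 33.3% at Tbx21 with equal-length lists. These rest on few regions, and the cause was not tested.

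For SOX13lo against SOX13hi at Ifng, the interval held the share over all regions with the upper 50% (85.7%), equal-length lists (75.0%), wider peaks (88.9%), the central 50% of the window (92.9%) and a reciprocal overlap (74.1%). It left out that share at Eomes in windows widened by 50 kb (93.3%), and for SOX13lo against DP at Tbx21 in widened windows (4.35%). The numbers of regions stayed within 1.5 times the main number in 7 of 15 cases with equal-length lists, 14 of 15 with joining and 4 of 15 with peaks wider than 30 bp. The SOX13lo clusters at Ifng, whose gaps were chosen after seeing the data, numbered 2 with gaps of 5 kb. No paired analysis was possible because each group held 1 library. The unknown read depth and the small number of regions limit these comparisons.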
